A study of Mus musculus with 6 samples.

Results

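The 9 genes described here encode proteins by which vessel walls start, restrain and undo blood clotting: Vwf, F8, F3, Thbd, Procr, Tfpi, Plat, Plau and Plaur. They were chosen by gene symbol, and all 9 were found among the 21956 genes of the deposited table. Whole liver was sequenced from 3 mice of genotype Stingfl/fl Cdh5-Cre+ (knockout) and from 3 Cre-negative littermates, Stingfl/fl Cdh5-Cre- (control), so that both groups carried the floxed Sting alleles and the knockout group alone carried Cre. Cdh5-Cre is driven by the promoter of VE-cadherin, an adhesion protein of endothelial cells. All mice ate chow until 8 weeks of age; for the next 10 weeks their food was CDAHFD, rich in fat, free of choline and with amino acids in place of protein, which produces steatohepatitis. No group without the diet and no Cre-positive group without floxed alleles was analysed here.

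Clotting begins when tissue factor (F3) on cells outside the blood stream meets factor VII, and it is amplified by factor VIII (F8), which circulates bound to von Willebrand factor (Vwf). Endothelial cells restrain it with tissue factor pathway inhibitor (Tfpi), with thrombomodulin (Thbd), which turns thrombin into an activator of protein C, and with the endothelial protein C receptor (Procr). Fibrin is dissolved by plasmin, which is released from plasminogen by the tissue-type activator (Plat) or the urokinase-type activator (Plau), the second of which acts on the cell surface through its receptor (Plaur). In the liver, sinusoidal endothelial cells are known as a source of factor VIII, while hepatocytes make most of the soluble clotting factors.

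Library totals ranged from 16704664 to 21025461 counts. The labels name both liver and sinusoidal endothelial cells, and the libraries had the make-up of whole liver, since 6 hepatocyte markers summed to between 120700 and 138000 CPM (counts scaled to library size) in knockout and between 86870 and 122400 CPM in control livers. The pan-endothelial markers, 10 in number, summed to between 418.8 and 429.1 CPM in knockout and between 406.9 and 444.3 CPM in control livers, and all were detected. These sums use library totals, on which 4 of the 10 had a log2 fold change above 0 (median -0.0076), while 9 of 10 were above 0 after TMM scaling (median 0.20). Of 10 sinusoidal endothelial markers 9 were above 0 after TMM scaling (median 0.40) and 7 on library totals (median 0.20). After TMM scaling 6 had an unadjusted p under 0.05 in edgeR's test as higher, beside 3.75% of all genes, and none passed the adjusted test. The median of all genes tested was 0.01 after TMM scaling and -0.21 on library totals. Sting1, the deleted gene, had 106, 114 and 80 counts in knockout against 240, 365 and 226 in control libraries, and the groups did not overlap. Its log2 fold change was -1.29 (standard error 0.23), with an adjusted p of 0.357 in edgeR's quasi-likelihood test and of 0.00154 in DESeq2. Control replicate 2 stood apart, with a scaling factor of 1.26 against 0.922 to 1.01 in the other libraries. It was the highest of the 6 libraries for 25.3% of the 13197 genes tested.

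Plat was the member that differed most between the groups, and the other 8 overlapped. All 9 members passed the filter on low counts. In edgeR's quasi-likelihood test with Benjamini-Hochberg adjustment over the 13197 genes tested, 0 of 9 members had an adjusted p under 0.05, beside 0.0% of all genes, and 1 of 9 (Plat, lower) had an unadjusted p under 0.05, beside 7.0% of genes lower and 3.75% higher at that p. DESeq2 called 1 of 9, Plat as lower in the knockout, beside 0.629% of genes called lower and 0.273% called higher by that test. The knockout and control libraries did not overlap, lower in knockout, for 1 of 9 members, beside 9.14% of all genes; none lay entirely higher, beside 7.25%. Of the 9 log2 fold changes 8 were below 0, beside 48.8% of all genes, with a median of -0.19 over the members and 0.01 over all genes tested. Without control replicate 2 there were 6 of 9 below 0, with a median of -0.065; without TMM scaling the median was -0.38 over the members and -0.21 over all genes.

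**Figure D1:**
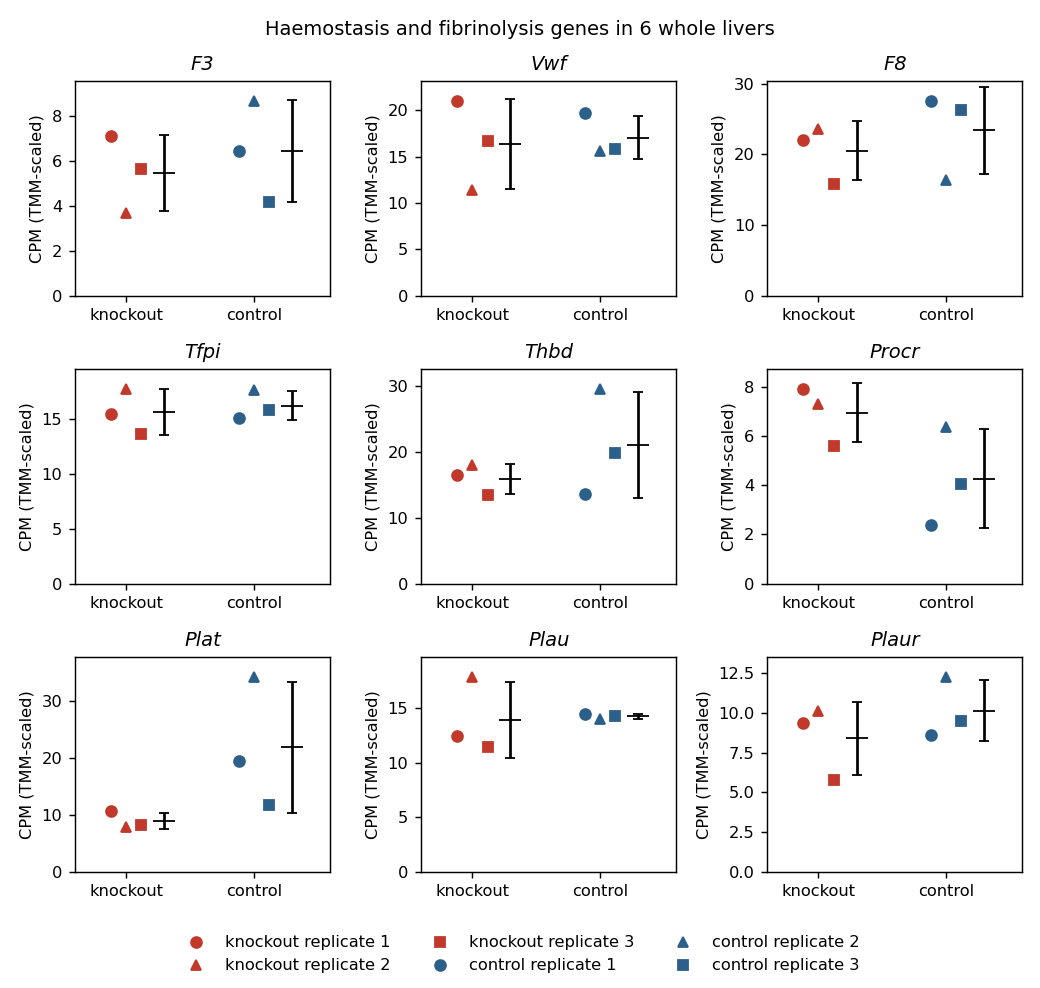
TMM-scaled CPM (y axis, from 0) of each member in the 3 knockout and 3 control livers; points are single libraries, and the black mark with its bar is the group mean ± SD. Plat is the panel in which all 3 knockout libraries, at 10.6 CPM or less, lie below all 3 control libraries, at 11.8 CPM or more.

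Per unit of transcript length the 9 genes stood at similar, low levels. Mean TPM (counts scaled to transcript length and to a fixed total) over the 6 libraries were 12.6 for Tfpi, 12.2 for Plat, 11.7 for Plaur, 11.1 for Plau, 9.49 for Thbd, 6.59 for Procr, 6.02 for F3, 5.72 for F8 and 4.61 for Vwf. Tfpi, Plaur and Plau did not differ beyond their spread: Tfpi had 11.3 ± 1.27 TPM in knockout and 14.0 ± 3.30 TPM in control livers, and Plau had 10.0 ± 2.59 TPM in knockout and 12.2 ± 2.05 TPM in control livers (SD, n = 3 each). Nor did F3 and F8 in either group, or Thbd and Procr in knockout livers. Within each control library, replicates 1 to 3, Thbd stood above Procr, at 6.72, 19.3 and 9.37 TPM against 2.74, 9.73 and 4.47 TPM. Tfpi likewise stood above Plau within each control library, at 12.4, 17.8 and 11.8 TPM against 11.4, 14.6 and 10.8 TPM. Vwf, the lowest, stood at 4.20 ± 0.84 TPM in knockout and 5.03 ± 1.35 TPM in control livers, where F8 had 6.74 ± 0.16 TPM (SD, n = 3 each). Plat stood at 5.92 ± 0.93 TPM in knockout and 18.4 ± 12.9 TPM in control livers (SD, n = 3 each). Within the knockout group it stood below Thbd, at 7.18 ± 1.07 TPM, while within the control group its mean was the highest of the 9 and rested on control replicate 2, at 33.0 TPM. In bulk tissue a lower level can come from fewer cells of a type or from less RNA per cell, and these cannot be told apart.

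RefSeq's promoter table for GRCm38.p6 held windows for 5 of the 9 members: F3, Procr, Tfpi, Plaur and F8. The windows are shown up to the first annotated start of the gene in GENCODE M21, for the 4 members where that left at least 100 bases, since the regulatory letters of these genes are what a reader would set beside their levels. Capitals mark 3 motifs searched on both strands: the GC box GGGCGG, the AP-1 motif TGANTCA and the CACC box CACCC, which may overlap each other. The motifs were chosen from general knowledge after the values had been seen.
F3 (chr3:121723287-121723536, plus strand): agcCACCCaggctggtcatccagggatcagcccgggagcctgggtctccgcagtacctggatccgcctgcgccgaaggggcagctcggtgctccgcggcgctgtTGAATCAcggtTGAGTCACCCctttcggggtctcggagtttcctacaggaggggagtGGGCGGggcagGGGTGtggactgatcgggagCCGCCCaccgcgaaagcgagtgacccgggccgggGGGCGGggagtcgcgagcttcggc
Procr (chr2:155750967-155751116, plus strand): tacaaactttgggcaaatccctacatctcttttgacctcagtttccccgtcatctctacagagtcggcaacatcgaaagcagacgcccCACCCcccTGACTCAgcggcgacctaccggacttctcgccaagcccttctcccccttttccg
Tfpi (chr2:84476776-84477009, minus strand): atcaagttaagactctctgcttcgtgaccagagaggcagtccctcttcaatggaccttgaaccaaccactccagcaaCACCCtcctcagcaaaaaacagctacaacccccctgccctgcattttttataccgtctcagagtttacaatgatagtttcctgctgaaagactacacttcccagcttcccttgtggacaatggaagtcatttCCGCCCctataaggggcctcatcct
Plaur (chr7:24462233-24462482, plus strand): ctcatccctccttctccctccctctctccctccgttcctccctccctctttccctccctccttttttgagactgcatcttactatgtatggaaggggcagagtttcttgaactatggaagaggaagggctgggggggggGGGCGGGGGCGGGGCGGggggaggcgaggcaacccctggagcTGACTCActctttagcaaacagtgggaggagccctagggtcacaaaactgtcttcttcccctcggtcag

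The F3 window of 250 bases held 2 AP-1 motifs, 3 GC boxes and 3 CACC boxes, and its GC content was 70.0%. The Plaur window of 250 bases held 1 AP-1 motif and 3 GC boxes. The Procr window of 150 bases held 1 AP-1 motif and 1 CACC box, and the Tfpi window of 234 bases held 1 GC box and 1 CACC box and no AP-1 motif. Among all 32851 windows of the table, cut to 250 bases, 6.75% held the AP-1 motif, 32.7% the GC box and 52.0% the CACC box. At 150 bases the AP-1 share was 4.0% and the CACC box share 35.2%, and at 234 bases the GC box share was 30.4% and the CACC box share 49.8%. These are matches of letters, and no binding was measured.

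Tissue factor, the starter of the cascade, overlapped between the groups. F3 (ENSMUSG00000028128; GRCm38 chromosome 3, 121723537 to 121735048, plus strand) had 7.07, 3.67 and 5.61 CPM in knockout replicates 1 to 3, against 6.42, 8.67 and 4.15 CPM in control replicates 1 to 3. The highest library was control replicate 2 and the lowest was knockout replicate 2, with the other 4 intermixed. The log2 fold change was -0.23, with a 95% interval from -0.98 to 0.51. It lay at 0.06 without control replicate 2, so that the sign rested on that library.

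Von Willebrand factor, the platelet tether and carrier of factor VIII, also overlapped. Vwf (ENSMUSG00000001930; chromosome 6, 125546774 to 125686679, plus strand) had 21.1, 11.4 and 16.7 CPM in knockout livers against 19.8, 15.6 and 15.8 CPM in control livers. The knockout group held both the highest and the lowest library. The log2 fold change was -0.06, with a 95% interval from -0.57 to 0.46. The value was 0.15 without knockout replicate 2 and 0.07 without control replicate 1.

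Factor VIII, the cofactor that Vwf carries, depended on the unit. F8 (ENSMUSG00000031196; chromosome X, 75172715 to 75382615, minus strand) had 22.1, 23.6 and 15.7 CPM in knockout livers against 27.6, 16.3 and 26.3 CPM in control livers. The groups overlapped through control replicate 2, and the log2 fold change was -0.19, with a 95% interval from -0.72 to 0.34. In the deposited TPM it stood at 4.83, 5.74 and 3.56 in knockout livers against 6.92, 6.65 and 6.65 in control livers, where the groups did not overlap. On that scale 18.6% of the genes tested were lower without overlap, and the median log2 fold change of all genes was -0.19 with a pseudocount of 1. F8 overlaps Fundc2, a gene on the opposite strand that had 345, 214 and 240 counts in knockout and 299, 336 and 301 in control libraries. The libraries were strand-specific, but strand use in counting is not stated in these sources. How reads in the overlap were assigned is therefore not known.

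**Figure D2:**
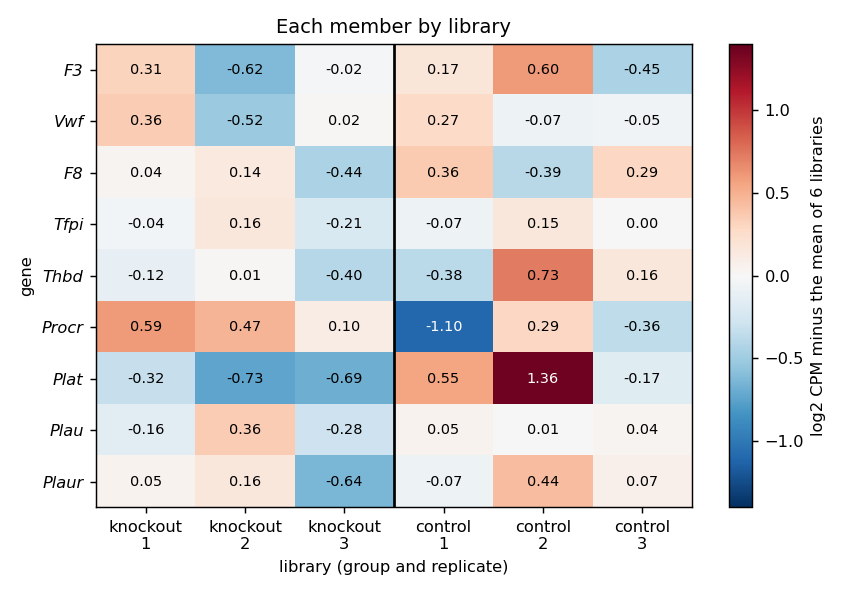
Log2 CPM of each member minus its mean over the 6 libraries, by library (x axis, knockout left of the line and control right of it); red is above the mean and blue below. Plat runs from -0.73 in knockout replicate 2 to 1.36 in control replicate 2, and Procr from 0.59 in knockout replicate 1 to -1.10 in control replicate 1.

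The 3 anticoagulants of the vessel wall differed in the sign of their fold changes, and each overlapped between the groups. Tfpi, which blocks tissue factor with factor VIIa, varied little: it had 15.5, 17.8 and 13.7 CPM in knockout livers against 15.1, 17.7 and 15.9 CPM in control livers (ENSMUSG00000027082; chromosome 2, 84432855 to 84476775, minus strand). Its SD was 13.1% of its mean in knockout and 8.13% in control livers. The log2 fold change was -0.05, with a 95% interval from -0.40 to 0.30, which leaves room for a knockout level between 0.756 and 1.23 times that of control. It was -0.28 without TMM scaling, where the median of all genes was -0.21.

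Thrombomodulin was high in 1 control liver. Thbd (ENSMUSG00000074743; chromosome 2, 148404466 to 148408188, minus strand) had 16.4, 17.9 and 13.4 CPM in knockout livers against 13.6, 29.5 and 19.8 CPM in control livers. Control replicate 2 was the highest, and control replicate 1 lay within the knockout range. The log2 fold change was -0.40, with a 95% interval from -1.01 to 0.21. Without control replicate 2 it was -0.06.

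Procr was the member with a higher mean in knockout livers. This receptor presents protein C to the thrombin and thrombomodulin complex (ENSMUSG00000027611; chromosome 2, 155751117 to 155755471, plus strand). It had 7.92, 7.29 and 5.61 CPM in knockout livers against 2.38, 6.38 and 4.05 CPM in control livers. The 2 highest libraries were knockout and the 2 lowest were control, with control replicate 2 above knockout replicate 3. The mean was 6.94 ± 1.20 CPM in knockout and 4.27 ± 2.01 CPM in control livers (SD, n = 3 each), a log2 fold change of 0.70 with a 95% interval from -0.08 to 1.47. In edgeR's quasi-likelihood test its adjusted p was 0.504. Without control replicate 2 the log2 fold change was 1.12, and without control replicate 1, the lowest library, it was 0.42. The adjusted p in edgeR's test over the fits that leave out 1 library ranged from 0.516 to 0.815.

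Tissue plasminogen activator, the fibrin-bound starter of clot lysis, was lower in every knockout liver than in any control liver. Plat (ENSMUSG00000031538; chromosome 8, 22757727 to 22782844, plus strand) had 199, 138 and 149 counts in knockout against 384, 718 and 241 in control libraries. After scaling these were 10.6, 7.92 and 8.19 CPM in knockout and 19.4, 34.2 and 11.8 CPM in control livers. Knockout livers were close to each other, while the control livers were spread over a wide range, with control replicate 3 only just above knockout replicate 1. The means were 8.90 ± 1.47 CPM in knockout and 21.8 ± 11.4 CPM in control livers (SD, n = 3 each), a knockout level that was 40.8% of that of control.

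On the log2 scale the fold change of Plat was -1.29, with a standard error of 0.36 and a 95% interval from -2.11 to -0.48. Its unadjusted p in edgeR's quasi-likelihood test ranked 222 among 13197 genes, and its adjusted p was 0.367. By an exact permutation test (two-sided) p was 0.1, and 3 livers against 3 cannot give a smaller one. DESeq2's adjusted p was 0.042. That DESeq2 call held without knockout replicate 1 (adjusted p = 0.041) and without control replicate 3 (0.000353). It was lost when knockout replicate 2 (0.168) or 3 (0.351) was left out, and likewise for control replicate 1 (0.172) or 2 (0.323). Without control replicate 2 the log2 fold change in edgeR was -0.80, and the knockout held 57.1% of the mean of the other 2 control livers.

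**Figure D3:**
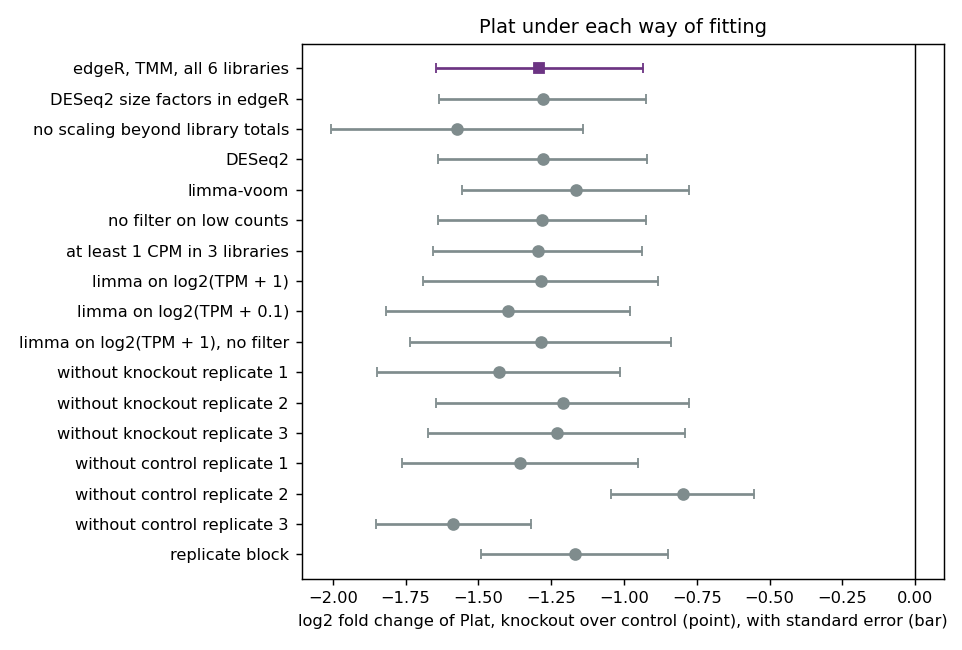
Log2 fold change of Plat, knockout over control (x axis), with its standard error as a bar, in the fit reported (square) and under each alternative (circles). The values lie between -1.59 without control replicate 3 and -0.80 without control replicate 2.

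Summed on library totals, cholangiocyte markers and stellate cell and fibroblast markers were highest in the same control library as Plat. So were the sums of monocyte and macrophage, mesothelial and sinusoidal endothelial markers. The sinusoidal sum was 633.8 CPM there, against 628.5 CPM in knockout replicate 1. The pan-endothelial, large vessel endothelial and platelet marker sums were highest in other control libraries. The Kupffer, neutrophil and hepatocyte marker sums were highest in knockout libraries. Every one of 6 cholangiocyte markers had a log2 fold change below 0 (median -1.38), beside 48.8% of all genes. None passed edgeR's adjusted test, and DESeq2 called 1, beside 0.629% of genes called lower by that test. On TMM-scaled counts all 6 cholangiocyte markers were highest in control replicate 2. Their summed level was 509.8, 227.2 and 282.6 CPM in knockout and 820.8, 1565 and 502.2 CPM in control livers, most of it Spp1, which macrophages also express. Every one of 8 stellate cell and fibroblast markers was below 0 (median -0.27), and 7 of 8 were without control replicate 2. They summed to 1147, 1130 and 1025 CPM in knockout and 1717, 2559 and 1194 CPM in control livers. On TMM-scaled counts Col1a1, Col3a1 and Acta2 were highest in control replicate 2. The stellate markers Lrat, Reln, Ngfr, Pdgfrb and Dcn were highest in other libraries, and Lrat was lowest in control replicate 2. Of 6 mesothelial markers 4 (Msln, Upk3b, Upk1b and Lrrn4) were under the filter, with at most 9 counts in any library. The 2 tested were Gpm6a and Krt19, the second also a cholangiocyte marker. Both were below 0 (median -1.31, and -0.98 without control replicate 2). On TMM-scaled counts both were highest in control replicate 2. None of the marker lists had a member at 0 in every library. The part of these cell types in the level of Plat was not tested.

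The other plasminogen activator did not follow Plat. Plau (ENSMUSG00000021822; chromosome 14, 20836660 to 20843385, plus strand) had 12.4, 17.9 and 11.4 CPM in knockout livers against 14.5, 14.0 and 14.3 CPM in control livers. The 3 control libraries were almost equal and lay inside the range of the knockout libraries. The log2 fold change was -0.03, with a 95% interval from -0.46 to 0.40, and the difference between the fold changes of Plat and Plau was not tested. It was 0.04 without knockout replicate 1, 0.09 without knockout replicate 3 and -0.25 without TMM scaling.

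Plaur, which anchors urokinase to the cell surface, overlapped between the groups (ENSMUSG00000046223; chromosome 7, 24462484 to 24475968, plus strand). It had 9.36, 10.1 and 5.77 CPM in knockout livers against 8.64, 12.3 and 9.52 CPM in control livers. Control replicate 2 was the highest and knockout replicate 3 the lowest, and the other 4 lay close together. The log2 fold change was -0.27, with a 95% interval from -0.83 to 0.29. Monocyte and macrophage markers come from cells that express Plaur. On library totals they summed to 1580, 1460 and 1018 CPM in knockout and 1581, 3028 and 1473 CPM in control livers. These sums include Spp1, also a cholangiocyte marker, and were highest and lowest in the same libraries as Plaur. On TMM-scaled counts only Ccr2 and Spp1 were highest in control replicate 2. Itgam, Cd68, Trem2 and Gpnmb were highest in knockout replicate 2, and Ly6c2 in knockout replicate 1. The part of these cells in the level of Plaur was not tested.

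Among themselves the members followed several patterns over the 6 libraries. Plaur and Tfpi were the closest pair, with a Pearson correlation of log2 CPM of 0.91, followed by Plaur and Thbd at 0.81. Plat followed F3 at 0.72 and Thbd at 0.62, and had a correlation of 0.02 with Plau. The lowest correlation was -0.71, between Vwf and Plau. These are descriptions over 6 libraries that share their scaling and include control replicate 2, which was the highest library for F3, Thbd, Plat and Plaur.

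Of 64 other genes of the pathway, all in the table, 55 were tested and 0 passed edgeR's adjusted test, beside 0.0% of all genes. DESeq2 called 1 of them, as higher, beside 0.273% of genes called higher by that test. At an unadjusted p under 0.05 there were 3 lower, beside 7.0% of all genes, and 5 higher, beside 3.75%. The groups did not overlap for 2 as lower, beside 9.14% of all genes, and for 14 as higher, beside 7.25%. Of the 55 log2 fold changes 44 were above 0, with a median of 0.21. There were 37 above 0 without control replicate 2 and 28 without TMM scaling, with a median of 0.00 where that of all genes was -0.21.

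Most of the listed liver coagulation factors had a fold change above 0, by an amount that depended on the scaling and on control replicate 2. Of 16 liver coagulation factors and their vitamin K enzymes, 16 had a log2 fold change above 0 on TMM-scaled counts, with a median of 0.28, and none passed edgeR's adjusted test. There were 13 of 16 above 0 without control replicate 2 and likewise without TMM scaling. In TPM 9 had a higher mean and 7 a lower mean in knockout livers. The median log2 fold change of all genes in TPM was -0.19 with a pseudocount of 1. F7, which binds tissue factor, had 44.1, 50.9 and 56.8 CPM in knockout livers against 34.0, 23.6 and 38.7 CPM in control livers, a log2 fold change of 0.66. F12, the starter of the contact pathway, had a log2 fold change of 0.54, and its groups did not overlap either. Neither passed, with adjusted p of 0.373 and 0.395 in edgeR's quasi-likelihood test. Hepatocyte markers, 6 of 6, were likewise above 0, with a median of 0.43; their part in the levels of the clotting factors was not tested. Without control replicate 2 the medians were 0.16 for the factors and 0.21 for the hepatocyte markers, beside 0.01 for all genes. Without TMM scaling they were 0.098 and 0.24, beside -0.21 for all genes.

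Of the other anticoagulants 10 of 11 were tested, and 10 were above 0 on TMM-scaled counts, with a median of 0.29. There were 9 above 0 without control replicate 2 and 5 without TMM scaling, with a median of 0.066. Proz, which encodes protein Z, and Serpina10, the inhibitor that works with it against factor Xa, had log2 fold changes of 0.54 and 0.47. Serpina10 had 187.4, 308.6 and 304.8 CPM in knockout livers against 175.3, 194.1 and 208.3 CPM in control livers, which overlapped through knockout replicate 1. Neither passed edgeR's adjusted test.

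Serpine2, an inhibitor of Plat, had a lower mean in knockout livers, as Plat did. Of 9 tested genes of the fibrinolysis list 4 were below 0 and 5 above, with a median of 0.03. That median was 0.14 without control replicate 2 and -0.17 without TMM scaling, where that of all genes was -0.21. This serpin, which also inhibits thrombin, had 14.5, 11.6 and 14.1 CPM in knockout livers against 20.7, 39.7 and 16.2 CPM in control livers, without overlap. Its log2 fold change was -0.93 (adjusted p = 0.381 in edgeR's quasi-likelihood test), and -0.45 without control replicate 2.

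Of 10 genes that handle Vwf and factor VIII, 9 were above 0, with a median of 0.26; without TMM scaling 6 were above 0, with a median of 0.055. Asgr2, a subunit of the asialoglycoprotein receptor, overlapped between the groups (log2 fold change 0.42).

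Of 13 thrombin receptor and platelet genes 6 were tested, 3 below 0 and 3 above, with a median of -0.06. Without TMM scaling all 6 were below 0, with a median of -0.27 where that of all genes was -0.21. Thbs1, a matricellular protein that platelets also release, had 14.4, 22.4 and 14.6 CPM in knockout livers against 24.9, 64.4 and 17.4 CPM in control livers. Its log2 fold change of -1.06 was -0.30 without control replicate 2. F2rl1, a protease-activated receptor, had 6 to 33 counts in knockout and 8 to 145 counts in control libraries, and its log2 fold change of -1.42 was -0.13 without control replicate 2. Neither passed edgeR's adjusted test. Summed platelet and megakaryocyte markers were between 3.67 and 5.35 CPM in knockout and between 4.50 and 5.52 CPM in control livers.

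Klf2, a shear-responsive endothelial factor known to drive Thbd, was lower in all 3 knockout livers. It had 10.8, 8.38 and 5.72 CPM in knockout livers against 15.8, 13.1 and 11.8 CPM in control livers, a log2 fold change of -0.71 (adjusted p = 0.385 in edgeR's quasi-likelihood test) and of -0.72 without control replicate 2. Its relative Klf4 had a log2 fold change of -0.95 and overlapped. Of the 4 regulators on that list 3 were below 0, and the remaining gene, Erg, stood at 0.20 without overlap. Without TMM scaling all 4 were below 0, with a median of -0.57 where that of all genes was -0.21. Thbd itself overlapped between the groups, as given above.

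**Figure D4:**
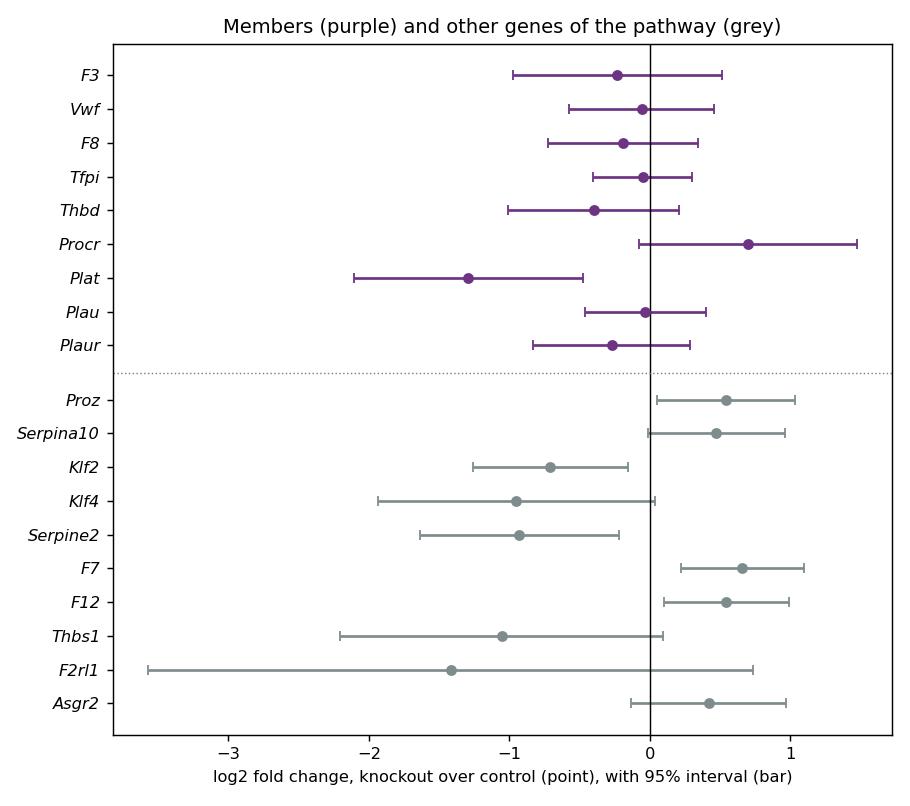
Log2 fold change, knockout over control (x axis), with its 95% interval as a bar, for the 9 members (purple) and up to 2 genes with the smallest p of each other list (grey). Among the members the interval of Plat alone, from -2.11 to -0.48, does not include 0.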

How the data were processed

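Polyadenylated RNA of 6 livers was sequenced from strand-specific libraries, per the labels' protocols. The deposited table held estimated counts and TPM per gene, both made by the authors; GRCm38 and the tools RSEM 1.3.3, HISAT2 2.2.1, DESeq2 1.38.3 and fastp 0.23.2 are named per the submitters' processing notes, without their roles. The annotation release is not stated there. The counts (6.93% not whole) were rounded and tested in edgeR 4.0.16: quasi-likelihood test, robust fit, TMM scaling, filterByExpr, Benjamini-Hochberg adjustment over 13197 genes at 0.05, with 95% intervals derived from the F statistic. CPM are TMM-scaled, except summed marker levels, which use library totals. Alternatives used DESeq2 1.42.0, limma 3.58.1 (voom, and log2(TPM) with pseudocounts of 1 and 0.1), other scalings and filters, a replicate block and leaving out each library; DESeq2 without each library was added after seeing the data. Fits were tested on simulated data. Scripts ran in R 4.3.3 and Python 3.11.15, with matplotlib 3.10.9. The members and lists were chosen with earlier results of these data known, and the other genes named are the 2 with the smallest p of each list, except some that are not reported here. Replicates are separate animals per the labels; no 2 libraries of a group were close enough to be repeats. Intervals from 3 animals a group are wide.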

Additional observations from a re-analysis of the deposited data

How the results depend on the processing

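The count of genes passing the adjusted test was 0 in edgeR under both other scalings and both other filters, in limma-voom and in the 3 TPM fits. It was 119 in DESeq2 and 5 with a replicate block. With 1 library left out it ran from 0 to 2 in edgeR (2 without control replicate 2, and 2 without control replicate 3) and from 29 (without knockout replicate 3) to 292 (without control replicate 3) in DESeq2. Members called were 0 in every edgeR and limma fit, 1 in DESeq2, and 0 to 1 in DESeq2 with 1 library left out; other pathway genes called were 0, 1 and 0 to 5 in those fits. DESeq2 alone put Plat (-1.28) and Sting1 (-1.28) past the threshold, and with 1 library left out in DESeq2 the log2 fold change of Plat ran from -1.58 to -0.80. With all 6 libraries, no member changed sign under any alternative. In edgeR with 1 library left out the log2 fold change ran from -1.59 to -0.80 for Plat, -1.43 to -1.06 for Sting1, 0.42 to 1.12 for Procr, -0.62 to -0.06 for Thbd, -0.42 to -0.06 for Plaur and -0.39 to -0.03 for F8. It changed sign for Vwf (-0.28 to 0.15), F3 (-0.46 to 0.056), Tfpi (-0.15 to 0.040) and Plau (-0.25 to 0.093). Same-numbered libraries deviated together with correlations of 0.115, -0.00678 and 0.133, and the numbers were not taken to pair the animals; with the replicate block the value for Plat was -1.17. The cause of these changes was not tested. With 3 animals a group, the 95% interval of each member other than Plat includes 0.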

Other observations

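The deposited annotation placed all 9 members in the complement and coagulation cascades, a term of 91 genes of which 79 were tested; the term was looked at after the values had been seen. None passed edgeR's adjusted test, and Plat was the 1 gene of the term called by DESeq2, beside 0.629% of genes called lower by that test. After TMM scaling the median log2 fold change of the term was 0.32, and 13 of 79 were below 0, beside 48.8% of all genes. The term was not examined on library totals or without control replicate 2. At an unadjusted p under 0.05 there were 3 lower, beside 7.0% of all genes, among them Plat and the bradykinin receptor Bdkrb2. At that p 9 genes were higher, beside 3.75% of all genes. These included F7, F10 and F12 and the complement genes C4b, C8b, Masp2, C1s1 and C1ra.

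Outside the list, the genes whose log2 CPM followed Plat most closely over the 6 libraries, among 10022 genes with a mean of at least 5 CPM, were Ltbp2 (Pearson correlation 0.996), Gadd45b (0.993) and Fbn1 (0.993). For Thbd they were Mlxip (0.994), Trmt5 (0.989) and Sh3pxd2b (0.981), and for Procr Elk1 (0.995) and Zcchc8 (0.984). For Plaur they were Anxa1 (0.995), Ankrd13a (0.993) and Siah1a (0.992). For each of the 9 members the closest gene had a correlation of at least 0.985, and these values are a description over 6 libraries.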
